A study of Mus musculus with 10 samples.

Results

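Bone marrow–derived macrophages (BMDMs) that received polyU together with PNPi+dG/rG were compared with BMDMs that received polyU without it. The comparison used 4 of the 10 libraries of the study, 2 labelled PNPi+dG/rG+polyU and 2 labelled polyU, and 11978 of the 55573 genes in the table, those with at least 1 CPM (reads of the gene scaled to a fixed library total) in at least 2 of the 10 libraries. It asked which parts of the response to single-stranded RNA (ssRNA) were boosted, stayed within 2-fold or were reduced when guanosine nucleosides were supplied and kept from breakdown. The cells were grown with M-CSF from wild-type female C57BL/6 mice, whose age is not given in the sources used here, and were treated for 4 hours before mRNA was sequenced. PolyU was given at 5 μg, complexed with the lipid DOTAP. PNPi was 1 μM ulodesine, an inhibitor of purine nucleoside phosphorylase (PNP), and it was combined with 5 μM deoxyguanosine (dG) and 5 μM guanosine (rG). The inhibitor and both nucleosides were added together, so their separate effects cannot be told apart. Vehicle-treated BMDMs and BMDMs given PNPi+dG/rG without polyU, 2 libraries each, provided the background, and a further pair of libraries from cells given 1 ng/mL R848 entered the fit. No group here received DOTAP without RNA.

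The labels number the 2 libraries of a group as biological replicates without naming the mice, so p-values measure the spread between these libraries. The polyU libraries held 17598254 and 17208178 reads on genes, and those of PNPi+dG/rG+polyU were the shallowest of the study with 14128124 and 14214913. A count of 3 reads corresponded to 0.170 and 0.174 CPM with polyU and to 0.212 and 0.211 CPM with the combination, and these floors cover counting error only. The vehicle libraries held 17820950 and 17798370 reads and the PNPi+dG/rG libraries 38392592 and 37402321. With 2 libraries against 2, an exact permutation test of a single gene cannot go below p = 0.333, so limma fitted across all genes was used, with Benjamini-Hochberg adjusted p-values. A gene was called at an adjusted p under 0.05 and at least 2-fold, and "within 2-fold" means that the whole 95% interval of its change lay inside that limit.

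TLR7 is an endosomal receptor that detects ssRNA. It has a binding site for RNA with uridines and a second site for guanosine, and occupancy of both favours its active dimer. Signals then pass through MyD88, IRAK kinases and TRAF6 to NF-κB and AP-1, which drive inflammatory cytokines, and to IRF factors, which drive type I interferon (IFN) and, through the IFN receptor, a large set of antiviral genes. PNP splits guanosine and deoxyguanosine into guanine and a sugar phosphate, which removes the nucleosides.

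The libraries carried the genes of macrophages. The 15 macrophage markers summed to 22547 and 22122 CPM with polyU and to 20605 and 20781 CPM with the combination, and Lyz2 had the highest CPM. Of these markers, 12 stayed within 2-fold, Cd14 and Csf3r were higher and Mertk was lower. Over all genes tested, 68.3% stayed within 2-fold, 5.29% were called higher and 10.2% lower, and the marker counts are to be read beside these shares. The other marker lists had far lower sums. Fibroblast markers summed to 2.84 and 3.14 CPM with polyU and to 8.85 and 9.0 CPM with the combination, with Pdgfrb, Fbn1 and Mmp2 called higher and Col6a1 lower among 13 tested genes, Fbn1 the highest and Loxl1 at 0 reads in all 4 libraries. Neutrophil markers summed to 6.93 and 4.53 CPM against 9.98 and 9.99 CPM, with S100a8 (the highest) and Camp called higher among 4 tested genes. Camp was at 0 reads in both polyU libraries, and Ly6g and Retnlg were at 0 reads in all 4. Endothelial markers, mostly Kdr, summed to 222 and 246 CPM against 144 and 144 CPM with no call among 4 genes and with Tek, Cldn5 and Emcn at 0 reads. Dendritic cell markers, mostly Bst2, summed to 459 and 509 CPM against 497 and 502 CPM with no call among 2 genes and with Flt3, Xcr1, Siglech and Cd209a at 0 reads. B and T lymphocyte markers, mostly Cd4, summed to 15.0 and 13.4 CPM against 11.3 and 9.50 CPM with no call among 2 genes, and the antigen receptor genes Cd79a, Cd3e, Cd3d and Cd3g and the B cell gene Ms4a1 were at 0 reads. In bulk RNA, fewer cells of a type or phase and less RNA per cell cannot be told apart. Whether other cell types had a part in the results was not tested beyond these values.

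Adding PNPi+dG/rG to polyU raised 634 of 11978 genes, 5.29% of those tested, and lowered 1219, or 10.2%. The median change was 3.42-fold among the raised genes and 2.65-fold among the lowered ones, and 96 genes rose and 21 fell by at least 10-fold. These 10-fold counts had no further limit on level or reads. Where a compared library was at 0 reads, the size of the fold change depended on the offset added to CPM. Among the called genes, 22 raised and 7 lowered ones had a library at 0 reads. More genes than were called, 8183 or 68.3%, stayed within 2-fold. At any size of change, 7582 of the 11978 genes had an adjusted p under 0.05. The median of all tested genes was −0.24 on the log2 scale. When each library was centred on its own median, 829 genes were called higher and 755 lower, so that the share of calls that were higher moved from 34.2% to 52.3%. Changes are therefore to be read against a median gene at −0.24. At the threshold, Ifi203-ps lay just inside at 1.00 and Ccdc71l just outside at 0.997, and Gpr180 and AA414768 lay on either side at −1.0. Without polyU, PNPi+dG/rG raised 8 genes (0.0668%) and lowered 1 (0.00835%) against vehicle, together 0.0751% of those tested, with 1076 genes at an unadjusted p under 0.05. Cxcl1 and Egr1 were among the 8, and the other 6 had 0 reads in both vehicle libraries. The total of 9 became 29 and 24 without vehicle replicate 1 or 2, 2 without PNPi+dG/rG replicate 2 and 0 with a pseudocount of 1. Whether PNPi+dG/rG acted differently in cells with and without polyU was tested as an interaction, which was called positive for 545 genes (4.55%) and negative for 1062 (8.87%).

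**Figure D1:**
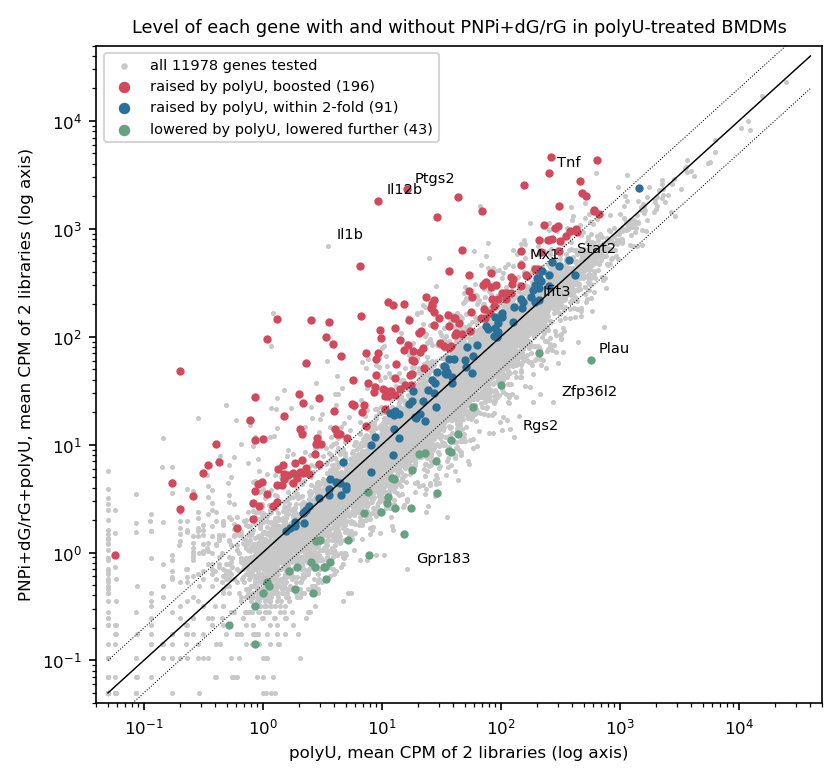
Each point is a gene, with its mean CPM over the 2 polyU libraries on the horizontal axis and over the 2 PNPi+dG/rG+polyU libraries on the vertical axis, both logarithmic, and values under 0.05 CPM drawn at 0.05. The solid line marks equal levels and the dotted lines 2-fold. The 196 genes that polyU raised and the combination boosted lie above the upper dotted line, the 91 raised genes that stayed within 2-fold lie between the lines, and the 43 genes that polyU lowered and the combination lowered further lie below.

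PolyU by itself raised 385 genes against vehicle (3.21%) and lowered 93 (0.776%), or 3.99% in all. Of the 385 raised genes, 196 (50.9%) were boosted by PNPi+dG/rG, with a median further change of 3.58-fold, 91 (23.6%) stayed within 2-fold, 92 could be placed in neither class and 6 were reduced. Of the 93 lowered genes, 43 fell further, 17 stayed within 2-fold, 8 were brought back up and 25 could not be placed. Both comparisons share the polyU libraries, so these counts describe the genes and carry no test. At this threshold, 430 of the 634 raised genes (67.8%) and 1170 of the 1219 lowered genes (96.0%) had not been called with polyU against vehicle. PolyU called only 3.99% of all tested genes, so most genes of any kind lay outside its response. The lowered genes had about the same share outside it as all tested genes, and the raised genes a smaller one.

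The 3 promoters printed here show both kinds of raised gene, from 250 bases before to 50 bases after the start in the RefSeq table on GRCm38.p6. Cxcl10 (chr5:92348840-92349139, minus strand) and Cxcl1 (chr5:90890995-90891294, plus strand) were boosted, and Ifit3 (chr19:34583279-34583578, plus strand) was raised by polyU and stayed within 2-fold. Capitals mark matches on either strand to the ISRE core, GAAA repeated after any 2 bases, which IRF and STAT complexes bind, to the kB consensus of NF-κB, and to the AP-1 site TGANTCA.
Cxcl10: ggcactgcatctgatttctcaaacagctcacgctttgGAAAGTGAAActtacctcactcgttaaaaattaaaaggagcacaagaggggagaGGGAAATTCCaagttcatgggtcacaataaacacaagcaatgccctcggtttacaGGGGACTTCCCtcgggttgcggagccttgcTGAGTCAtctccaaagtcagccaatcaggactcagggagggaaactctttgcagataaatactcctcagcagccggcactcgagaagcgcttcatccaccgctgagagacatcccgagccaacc
Cxcl1: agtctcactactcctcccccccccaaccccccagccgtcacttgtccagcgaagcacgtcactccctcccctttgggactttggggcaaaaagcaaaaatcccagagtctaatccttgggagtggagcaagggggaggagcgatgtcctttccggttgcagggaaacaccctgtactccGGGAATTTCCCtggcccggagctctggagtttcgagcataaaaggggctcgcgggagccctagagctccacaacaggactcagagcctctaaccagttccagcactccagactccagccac
Ifit3: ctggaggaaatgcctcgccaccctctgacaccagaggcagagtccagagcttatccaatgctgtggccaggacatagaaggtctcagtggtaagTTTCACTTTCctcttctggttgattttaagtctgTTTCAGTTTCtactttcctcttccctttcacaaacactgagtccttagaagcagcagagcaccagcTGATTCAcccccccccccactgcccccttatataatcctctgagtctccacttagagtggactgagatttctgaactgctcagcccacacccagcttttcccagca
The Cxcl10 window held 1 ISRE core, 3 kB matches, a pair of them overlapping, and 1 AP-1 site. The Cxcl1 window held 1 kB stretch that matched on both strands, and the Ifit3 window held 2 ISRE cores and 1 AP-1 site. Over the 27025 promoters of the table, 3.49% held the ISRE core, 8.18% the kB consensus and 7.93% the AP-1 site. Only 77.0% of the tested genes, under the minimum of 80%, had a promoter in the table, so a comparison of these shares between classes is void and none is given. The windows of Il12b, Il1b and Ptgs2, among the most strongly raised genes, held none of the 3 motifs.

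The receptor itself was not called. Tlr7 had 148 and 142 CPM with polyU and 152 and 166 CPM with the combination, a log2 fold change of 0.14 ± 0.07 (SE) with an adjusted p of 0.106, and both pairs overlapped the vehicle values of 166 and 142. With PNPi+dG/rG alone it had 113 and 123 CPM, a change of −0.38 against vehicle (adjusted p = 0.0257), and the interaction was 0.52 (adjusted p = 0.000702), both under 2-fold. Of 23 genes of TLR7 and its proximal signalling, 18 stayed within 2-fold, a share near the 68.3% over all genes. An adjusted p under 0.05 was reached by 19, beside 7582 of 11978 over all genes. Within 2-fold were the chaperone Unc93b1 (712 and 728 CPM against 735 and 733), the kinases Irak1, Irak4, Tbk1 and Map3k7 and the ubiquitin ligase Traf6. Irak2, a kinase that prolongs signalling, rose from 80.1 and 84.3 to 257 and 246 CPM, or 3.06-fold (adjusted p = 5.22e-13). Ikbke, an NF-κB-inducible kinase that acts on IRFs, rose from 301 and 321 to 629 and 620 CPM, or 2.01-fold, close to the threshold. The other called genes of the list fell: Tlr13, which detects bacterial ribosomal RNA, fell from 494 and 456 to 158 and 156 CPM, and Tlr9, a receptor for DNA, from 27.1 and 27.3 to 11.2 and 13.2 CPM, the latter a call lost on centring. The adaptor Myd88 (101 and 111 against 201 and 200 CPM) had a log2 fold change of 0.92 ± 0.06 and was called only after centring.

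Of 19 tested genes that handle guanosine, 15 stayed within 2-fold, a share near that over all genes. Pnp, the target of the inhibitor, was at 79.5 and 82.6 CPM with polyU and at 135 and 137 CPM with the combination, against 46.3 and 47.8 CPM with vehicle. Its log2 fold change of 0.74 ± 0.06 had an adjusted p of 7.76e-08 but was under 2-fold. Reads of Pnp and its close copy Pnp2, which rose from 2.61 and 2.03 to 5.52 and 6.61 CPM, may have been shared. Slc28a2, a concentrative transporter that takes up purine nucleosides, rose from 26.3 and 29.9 to 123 and 119 CPM, or 4.32-fold (adjusted p = 1.93e-12). Slc29a3, the nucleoside transporter of the lysosome, fell from 71.9 and 76.0 to 34.5 and 33.9 CPM, a change of −1.11 ± 0.06 that was no longer called once libraries were centred (−0.86). Dck and Samhd1, which phosphorylate deoxynucleosides and degrade dNTPs, stayed within 2-fold at log2 fold changes of −0.15 (0.11 after centring) and 0.43.

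Cytokine genes had the highest median change of the lists with at least 10 tested genes. Of 22 tested, 15 rose and 0 fell, beside 5.29% and 10.2% over all genes, and 15 to 19 rose across the other filters, offsets, scalings and models. Their median was 3.39 on the log2 scale (10.5-fold), against −0.24 over all genes and against 1.03 for the same list in polyU against vehicle. The median was 3.07 with Csf2, at 0 reads in both polyU libraries and 8 and 11 with the combination, set at its lower bound of 3 reads per library, and 2.06 with a pseudocount of 1. Il12b, which encodes the p40 subunit shared by IL-12 and IL-23, had 8.07 and 10.5 CPM with polyU and 1801 and 1846 CPM with the combination, or 199-fold (log2 7.63 ± 0.10, adjusted p = 1.18e-16). It was at 1.29 and 1.40 CPM with vehicle and at 1.25 and 1.15 CPM with PNPi+dG/rG alone, so high values stood in the combination libraries and no other of these 8. Il1b, the precursor of a fever-inducing cytokine, went from 3.81 and 3.31 to 661 and 736 CPM (196-fold, adjusted p = 7.08e-18), although polyU alone had not raised it by 2-fold. Il1a went from 1.7 and 0.755 to 156 and 173 CPM.

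Tnf and Il10, an inflammatory and an anti-inflammatory cytokine, were already raised by polyU and rose again. Tnf stood at 53.2 and 56.4 CPM with vehicle, 245 and 259 after polyU and 3415 and 3154 after the combination, a further 13-fold (adjusted p = 1.32e-12). Il10 stood at 2.02 and 1.97, 8.92 and 10.5, and 113 and 116 CPM in the same order, a further 11.8-fold. The interaction was positive for both, with log2 values of 3.11 and 3.83, so these rises exceeded the effect of PNPi+dG/rG without polyU. Il27, which pairs with Ebi3, rose from 3.13 and 3.66 to 99.6 and 99.1 CPM, and the macrophage growth factor Csf1 from 17.1 and 20.2 to 62.1 and 58.2 CPM. Il1rn, which blocks the IL-1 receptor, rose from 251 and 257 to 882 and 1060 CPM.

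Il6 showed the same order without passing the adjusted test. It had 1 and 0 reads with vehicle, 19 and 22 with polyU, 1 and 3 with PNPi+dG/rG and 1080 and 1242 with the combination, so the polyU and combination libraries did not overlap. Its log2 fold change of 6.12 had an adjusted p of 0.119 in the fit of all 10 libraries, and of 6.31e-08 and 6.42e-06 without vehicle replicate 1 or 2. The adjusted p was 6.56e-12 when the polyU and combination libraries were fitted by themselves and 2.48e-13 with a pseudocount of 0.1, and over all alternatives it ranged from 4.38e-17 to 0.267. Csf3, the neutrophil growth factor, had 3 and 3 reads with polyU and 91 and 84 with the combination, and Il12a had 0 and 1 against 19 and 19; neither was called. Osm stayed within 2-fold (8.81 and 9.59 against 8.07 and 10.9 CPM). Vegfa, an angiogenic factor that polyU had lowered, was at 21.7 and 22.2 against 13.4 and 11.1 CPM, short of 2-fold.

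Chemokine genes rose in part. Of 20 tested, 11 rose and 0 fell, beside 5.29% and 10.2% over all genes, and 14 rose after centring. Their median was 2.13 on the log2 scale (1.40 with a pseudocount of 1). Among the neutrophil attractants, Cxcl1 rose from 7.22 and 5.81 to 481 and 434 CPM (70.5-fold), Cxcl2 from 29.2 and 29.2 to 1325 and 1233 CPM (43.8-fold) and Cxcl3 from 2.27 and 2.79 to 137 and 149 CPM (56.6-fold). Ccl3, Ccl4 and Ccl5, which attract monocytes and T cells, rose as well, with Ccl3 going from 244 and 285 to 4514 and 4690 CPM, Ccl4 from 140 and 174 to 2506 and 2578 CPM, and Ccl5 from 57.3 and 61.4 to 582 and 660 CPM. Cxcl10, an IFN-responsive attractant of T cells, had already gone from 11 and 6.91 CPM with vehicle to 199 and 219 CPM with polyU. It reached 805 and 778 CPM with the combination, a further 3.79-fold (adjusted p = 0.00136). Among the monocyte attractants, Ccl7 rose from 173 and 161 to 352 and 422 CPM and Ccl12 from 14.1 and 12.4 to 53.6 and 58.8 CPM. Ccl2 (385 and 360 against 571 and 702 CPM), Ccl9 (1116 and 1085 against 1959 and 2039 CPM), the chemokine Ccl6 and the scavenger ligand Cxcl16 stayed within 2-fold. With PNPi+dG/rG alone, Cxcl1 had 1.25 and 1.84 CPM against 0.729 and 0.730 CPM with vehicle and was called. Cxcl2 had 6.75 and 11 CPM against 5.61 and 5.79 CPM with vehicle and was not called.

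**Figure D2:**
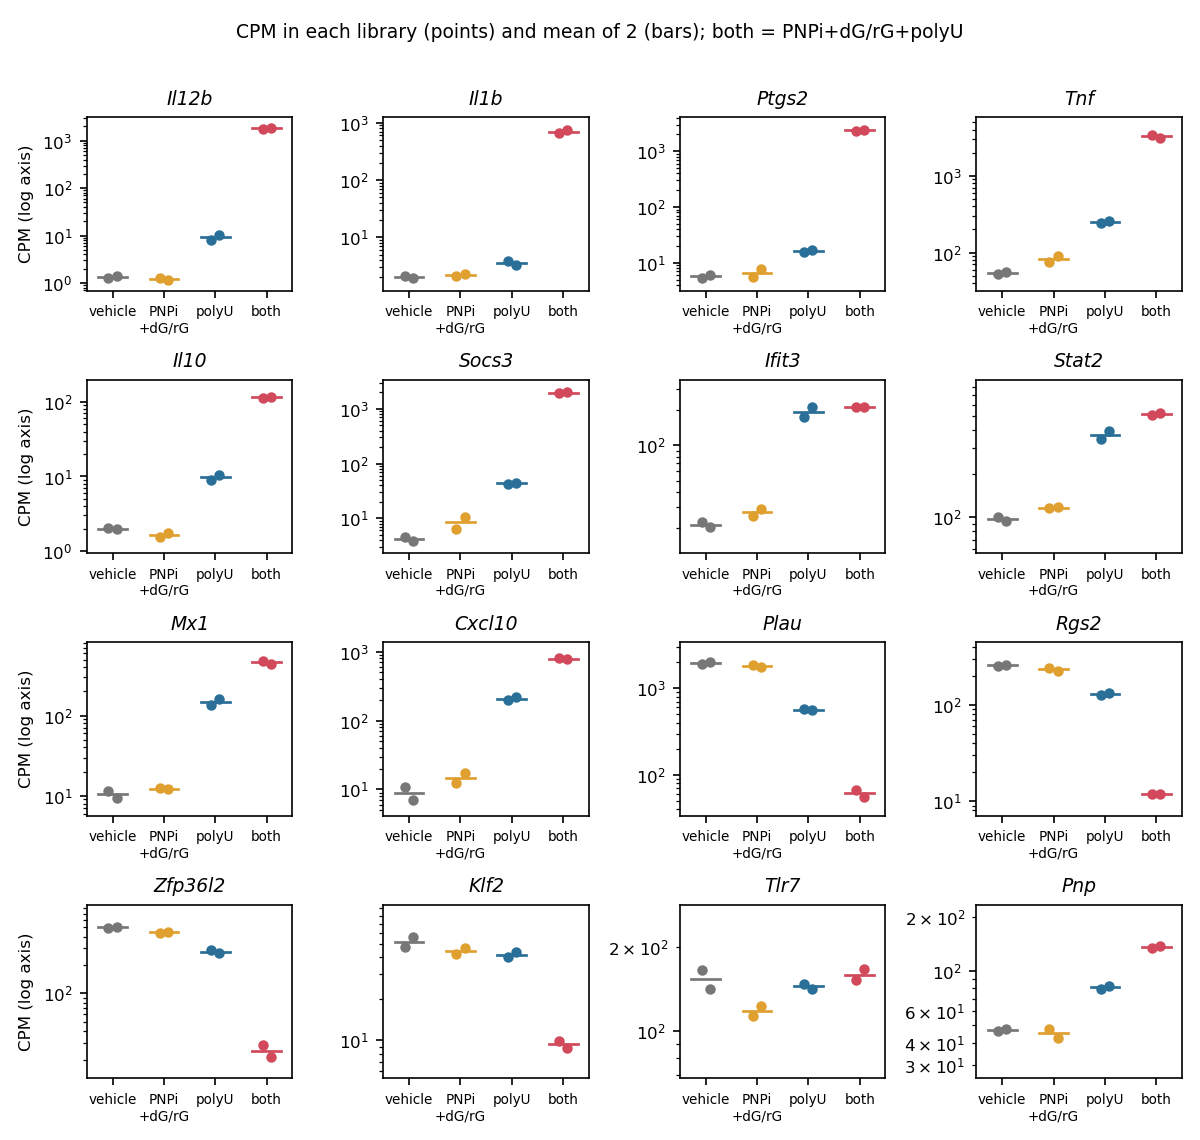
CPM of 16 genes in each library of the vehicle, PNPi+dG/rG, polyU and PNPi+dG/rG+polyU groups, on logarithmic axes that differ between panels and do not start at 0. Points are libraries and bars are means of 2. Il12b, Il1b, Ptgs2, Tnf, Il10 and Socs3 were highest with the combination, Ifit3 was at a like level with polyU and with the combination, Plau, Rgs2, Zfp36l2 and Klf2 were lowest with the combination, and the polyU and combination libraries of Tlr7 overlapped the vehicle libraries.

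Most genes of the NF-κB pathway and its feedback rose. Of 27 tested, 21 rose and 1 fell, beside 5.29% and 10.2% over all genes, with a median of 1.97 on the log2 scale. The DNA-binding subunits Nfkb1 (217 and 224 to 797 and 783 CPM), Rel, Nfkb2 and Relb rose, while Rela, whose protein is released from the cytoplasm, was at 0.77 and was called only after centring. Among the inhibitors, Tnip2 did not pass the test (36.3 and 33.3 against 35.9 and 31.9 CPM), Tnip1 and Tnip3 rose, and Nfkbia, which holds NF-κB in the cytoplasm, went from 309 and 311 to 1619 and 1629 CPM (5.23-fold) and Nfkbiz, a nuclear cofactor for secondary genes such as Il6, from 67.9 and 72.1 to 1514 and 1419 CPM (20.9-fold). Tnfaip3, a ubiquitin-editing brake, went from 149 and 162 to 782 and 803 CPM. Zfp36, which destabilises cytokine mRNAs, went from 175 and 175 to 1144 and 1120 CPM although polyU alone had left it near the 145 and 150 CPM of vehicle. Socs3, which curbs cytokine receptor signalling, had the largest change of the list, from 42.3 and 44.4 to 1963 and 2007 CPM (45.8-fold, adjusted p = 5.79e-06). The MAP kinase phosphatases differed among themselves: Dusp2 rose from 6.59 and 6.68 to 156 and 155 CPM and Dusp1 and Dusp16 rose too, whereas Dusp4 fell from 236 and 235 to 123 and 112 CPM, a change of −1.01 that was lost on centring.

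AP-1 and EGR factors, many of them immediate-early genes, moved in both directions. Of 17 tested, 5 were higher and 3 lower, beside 5.29% and 10.2% over all genes. Junb rose from 294 and 300 to 963 and 961 CPM, Batf from 7.96 and 9.76 to 56.8 and 67.5 CPM, and Ier3, Maff and Egr1 rose. Fos fell from 225 and 212 to 57.5 and 53.0 CPM, Jun from 267 and 274 to 78.3 and 73.6 CPM and Myc, a growth regulator, from 83.4 and 71.3 to 18.3 and 18.9 CPM. The 3 lower genes had not been called with polyU alone and stayed called after centring. Fosb, at 117 and 119 reads with vehicle, had 2 and 6 reads with polyU and 5 and 5 with the combination, so its drop was already present with polyU.

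Some enzymes that make inflammatory mediators rose, and Ptgs2 was among the most raised genes. Ptgs2, the inducible cyclooxygenase of prostaglandin synthesis, had 15.7 and 16.6 CPM with polyU and 2306 and 2393 CPM with the combination, or 145-fold (log2 7.18 ± 0.15, adjusted p = 1.29e-08). Ptges, which acts after it, rose from 25.7 and 26.6 to 190 and 208 CPM. Acod1, which makes itaconate, had been raised by polyU from 62.3 and 62.1 to 613 and 673 CPM and reached 4284 and 4358 CPM. Nos2, the inducible nitric oxide synthase, rose from 2.95 and 4.77 to 78.0 and 93.1 CPM (22.7-fold), and Gch1, which supplies its cofactor, from 56.5 and 66.5 to 137 and 143 CPM. In all, 7 of 15 genes of this list were higher and 1 lower, beside 5.29% and 10.2% over all genes. The lower gene was the prostaglandin receptor Ptger2 (5.06 and 6.45 against 1.84 and 1.97 CPM).

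The IFN genes themselves were scarce. Of 19 type I and III IFN genes, Ifnb1 was the 1 that passed the filter, with 1 and 0 reads under vehicle, 8 and 3 under polyU and 19 and 15 under the combination. The adjusted p of its change was 0.662 in the fit of all libraries and 0.00914 when the 2 groups were fitted by themselves, with a range from 0.000767 to 0.843 over all alternatives, so the call rests on the fit. Of 16 genes of IFN signalling, 12 stayed within 2-fold, a share near the 68.3% over all genes. Among them were the receptor subunits Ifnar1 and Ifnar2, Irf9 and Irf7 (396 and 469 against 505 and 508 CPM). Stat2 was at 351 and 396 against 510 and 528 CPM, a change of 0.48 ± 0.08, after polyU had raised it from 100 and 93.9 CPM. Irf1, which NF-κB also induces, rose from 102 and 115 to 261 and 242 CPM (2.32-fold), and Usp18, which damps IFN receptor signalling, from 106 and 120 to 246 and 259 CPM. Irf4 was lower on 15 and 9 against 3 and 4 reads, a call lost on centring, and Irf8, at 150 and 156 against 76.2 and 76.9 CPM, lay just short of the threshold at −1.0.

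PolyU had raised 33 of the 40 tested antiviral effectors, and these divided under the combination into 13 that were boosted, 12 that stayed within 2-fold and 8 that could not be placed. Of all 385 genes that polyU raised, 50.9% were boosted and 23.6% stayed within 2-fold, so these effectors had a smaller boosted share than polyU-raised genes as a whole. The list as a whole had 14 genes higher and 0 lower, beside 5.29% and 10.2% over all genes. Its median change was 0.86 on the log2 scale, and 22 were higher after centring. Mx1, a GTPase that blocks viral ribonucleoproteins, went from 11.4 and 9.38 CPM with vehicle to 136 and 159 after polyU and 482 and 440 after the combination, a further 3.14-fold (adjusted p = 4.35e-08). Ifi205, a DNA-binding PYHIN protein, had the largest change of the list, from 23.4 and 29.6 to 191 and 194 CPM. Isg15, a ubiquitin-like modifier, rose from 93.1 and 113 to 248 and 260 CPM and Rsad2, which makes a chain-terminating nucleotide, from 603 and 737 to 1415 and 1347 CPM (2.07-fold).

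In all, 34 of the 40 effectors were higher at an adjusted p under 0.05 and 18 had their whole interval within 2-fold. Over all genes, 7582 of 11978 had an adjusted p under 0.05 in either direction and 68.3% stayed within 2-fold. Ifit3, which binds with other IFIT proteins to viral RNA, stood at 22.2 and 20.2 CPM with vehicle, 174 and 211 after polyU and 210 and 209 after the combination, a change of 0.13 with a 95% interval from −0.06 to 0.32. Its copy Ifit3b gave 0.11, and the reads of the pair may have been shared. Oas2, which makes the activator of RNase L, was at 195 and 220 against 278 and 293 CPM, and Slfn1 at 17.0 and 18.5 against 22.3 and 28.8 CPM, changes of 0.46 and 0.51 that were under 2-fold and in which the groups did not overlap. Bst2, which tethers virions, was at 364 and 422 against 389 and 394 CPM. The promoter printed for Ifit3 held ISRE cores and no kB match, while that of Cxcl10 held both. Cxcl10 was picked for the most ISRE and kB matches together among boosted genes with both. The window of Slfn1, in the same class as Ifit3, held 1 kB match. That of Ifi205 held 2 ISRE cores and 0 kB matches, and that of Bst2 held 2 and 1. A link between these motifs and the classes was not tested.

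**Figure D3:**
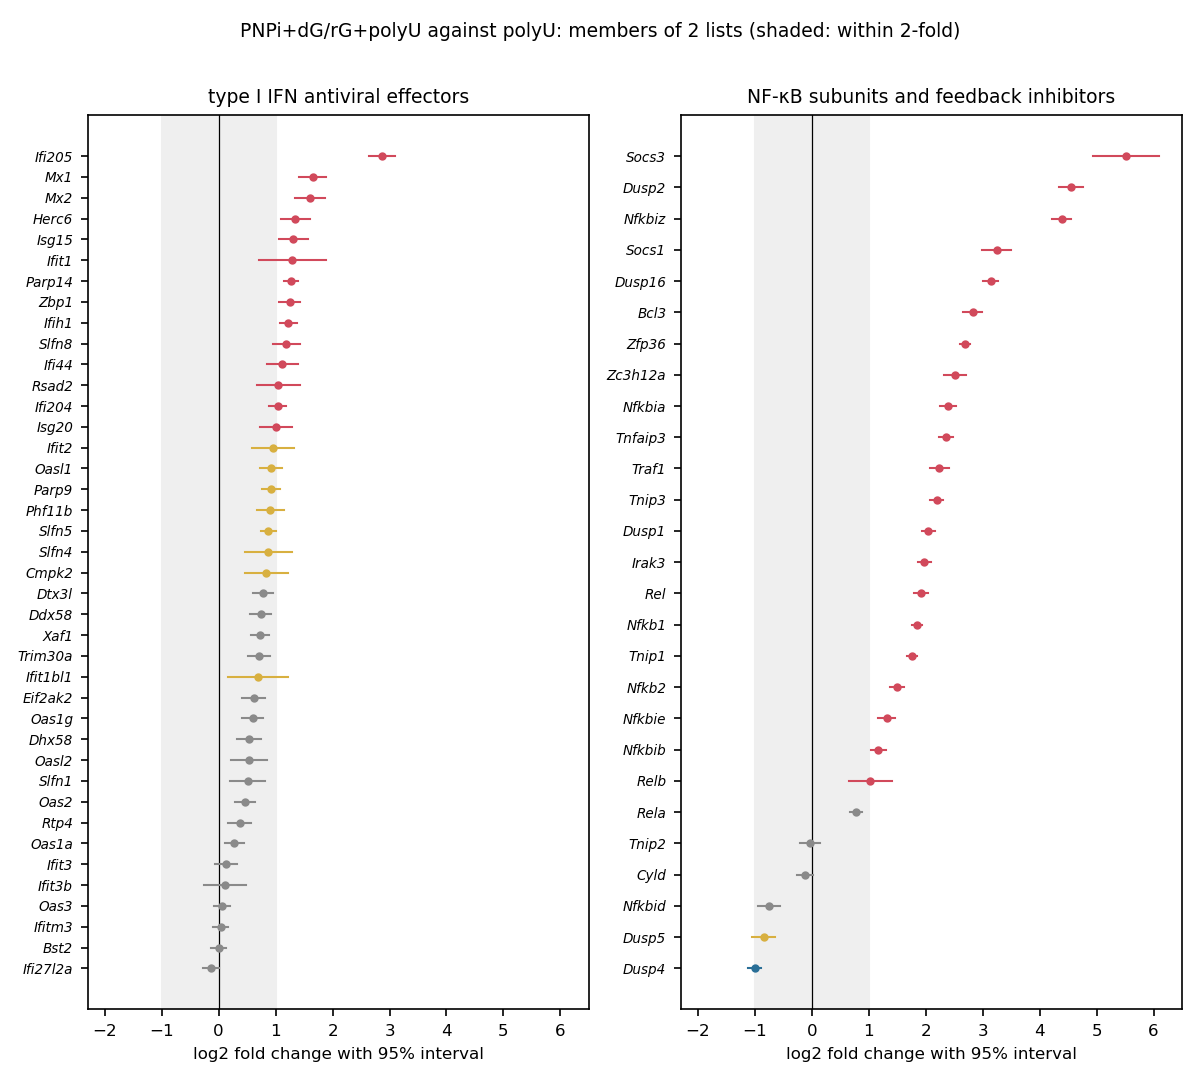
Log2 fold change of PNPi+dG/rG+polyU against polyU, with 95% intervals, for the 40 tested antiviral effectors and the 27 genes of the NF-κB list; the shaded band is 2-fold in either direction. Red points were called higher, blue lower, grey lay within 2-fold and yellow could not be placed. The antiviral genes run from −0.14 (Ifi27l2a) to 2.87 (Ifi205), and 21 genes of the NF-κB list are red, up to 5.52 for Socs3.

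The guanylate-binding proteins and immunity-related GTPases, which attack the vacuoles of intracellular pathogens and respond to both IFN and NF-κB signals, were mostly raised. Of 14 tested, 10 rose and 1 fell, beside 5.29% and 10.2% over all genes. Their median was 1.25 on the log2 scale, and 11 were higher after centring. Gbp5, which promotes inflammasome assembly, went from 33.9 and 39.5 to 406 and 406 CPM (11.1-fold, adjusted p = 9.43e-08), Gbp2 from 48.6 and 60.0 to 254 and 275 CPM and Gbp3 from 34.3 and 38.1 to 158 and 162 CPM. Irgm1 (250 and 262 against 373 and 379 CPM) and Gbp9 stayed within 2-fold, and Gbp8 was lower at about 1 CPM. These genes are similar in sequence, and how reads shared between them were counted is not given in the sources used here.

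MHC class I genes had small positive changes, and some costimulatory genes rose by more than 2-fold. All 19 class I genes were positive, with a median of 0.25 (0.50 after centring). An adjusted p under 0.05 was reached by 13, a share near that over all genes (7582 of 11978). All 19 genes of MHC class I presentation except Nlrc5, a transactivator of the class (2.04-fold, and under 2-fold without either of 2 libraries), stayed within 2-fold, including H2-K1, B2m, Tap1 and the immunoproteasome subunits Psmb8, Psmb9 and Psmb10. The class II genes H2-Aa, H2-Ab1, H2-Eb1 and Cd74 were also within 2-fold. Cd40, the receptor for T cell help, rose from 43.4 and 50.6 to 618 and 666 CPM (13.7-fold, adjusted p = 2.31e-14). Icosl rose from 13.2 and 15.3 to 94.4 and 92.0 CPM, the inhibitory ligand Cd274 from 133 and 164 to 598 and 646 CPM and the adhesion molecule Icam1 from 217 and 241 to 1104 and 1070 CPM. The classical costimulators Cd80 and Cd86 stayed within 2-fold, at −0.37 and −0.17.

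Of 29 chemotactic and nucleotide receptors and RGS proteins, 7 were higher and 7 lower, beside 5.29% and 10.2% over all genes. The formyl peptide receptors Fpr1 (10.3 and 9.53 to 96.0 and 99.7 CPM) and Fpr2, the decoy receptor Ccrl2 and the adenosine receptors Adora2a (1.76 and 2.85 to 53.9 and 60.9 CPM) and Adora2b rose. Gpr183, a receptor for oxysterols, had the largest fall of this list, from 17.0 and 15.7 to 0.708 and 0.703 CPM (10 reads in each library), or 23.2-fold (adjusted p = 5.62e-12). The cannabinoid receptor Cnr2 fell from 35.8 and 34.3 to 2.62 and 1.62 CPM, and Cx3cr1, P2ry6, P2rx7 and Rgs18 fell, the last of them no longer called on centring. Rgs2, which switches off G protein signals, went from 252 and 261 CPM with vehicle to 125 and 133 after polyU and 12 and 11.7 after the combination, a further 10.9-fold (adjusted p = 3.36e-15). Rgs1, in contrast, was lowered by polyU from 336 and 302 to 106 and 116 CPM and stayed there at 99.7 and 89.1 CPM.

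Of 27 macrophage identity genes, transcription factors and receptors for colony-stimulating factors, 6 were higher and 8 lower, beside 5.29% and 10.2% over all genes. Klf2, which keeps myeloid cells quiescent, had 47.0 and 56.1 CPM with vehicle, 40.1 and 43.3 after polyU and 9.84 and 8.86 after the combination, a fall of 4.46-fold against polyU (adjusted p = 3.71e-11). Its values with the combination lay below those of every vehicle and polyU library. Hhex, a homeobox factor of blood cells, fell from 50.2 and 43.8 to 11.5 and 9.99 CPM, and Klf4, Mef2c, Tal1 (a call lost on centring) and the E-box repressors Bhlhe40 and Bhlhe41 fell as well. Cebpd rose from 51.1 and 56.4 to 378 and 368 CPM, and Cebpb, Klf6, Tfec, Nr4a2 and Nr4a3 rose. Spi1, the master factor of the lineage, stayed within 2-fold (518 and 557 against 780 and 783 CPM), and so did Csf1r, the receptor for M-CSF (1987 and 1924 against 1455 and 1416 CPM).

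Of 24 scavenger and efferocytosis receptors, 4 rose and 2 fell, beside 5.29% and 10.2% over all genes. Within 2-fold were 17, a share near the 68.3% over all genes. Marco, which binds bacteria and particles, rose from 20.7 and 18.9 to 162 and 172 CPM, the inhibitory Fc receptor Fcgr2b from 84.3 and 72.1 to 684 and 779 CPM and the glycolipid sensor Clec4e from 495 and 476 to 2103 and 2198 CPM. Olr1 also rose. Mertk, which takes up apoptotic cells, fell from 34.4 and 36.7 to 9.84 and 8.16 CPM, or 3.96-fold. Stab1 fell from 1463 and 1344 to 704 and 687 CPM, a change of −1.01 that was lost on centring.

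Replication genes were lower as a group. All 26 tested had a negative change, with a median of −0.75 on the log2 scale against −0.24 over all genes, and of −0.49 against 0.017 after centring. An adjusted p under 0.05 was reached by 25, beside 7582 of 11978 over all genes. Past 2-fold, 5 were called lower, beside 10.2% over all genes. The count past 2-fold was 10 without polyU replicate 2 and 4 after centring. Cdt1, which loads the MCM helicase, fell from 123 and 110 to 28.2 and 26.6 CPM (4.26-fold, adjusted p = 3.34e-13). Its partner Cdc6 fell from 22.4 and 15.7 to 3.54 and 3.73 CPM, and Ccne2, Uhrf1 and Mcm3 fell, the last of them not past 2-fold on centring. The 24 genes of mitosis were all negative too before centring, with a median of −0.41 beside −0.24 over all genes. After centring the median was −0.15 and Cenpe was positive at 0.15. Limma called 0 of them, and 10 were lower at an adjusted p under 0.05. Within 2-fold were 14, beside 68.3% over all genes, for example Mki67 (547 and 448 against 387 and 421 CPM).

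All 27 respiratory chain subunits and 29 of 30 lysosomal genes stayed within 2-fold, beside 68.3% over all genes, and 0 were called by limma. An adjusted p under 0.05 was reached by 15 and 28 of them, beside 7582 of 11978 over all genes. The lysosomal median of −0.37 was −0.11 after centring. Of 20 glycolysis genes, 3 were called, a share like the 15.5% over all genes, and 17 stayed within 2-fold, and Pfkfb3, which makes the activator of phosphofructokinase, rose from 61.3 and 67.5 to 188 and 232 CPM alongside the transporter Slc2a6, while Slc2a3 fell by just over 2-fold, a call lost on centring. Gapdh was listed at 15.4 and 14.6 against 16.1 and 16.8 CPM, values that are uncertain because the gene has many processed copies. In cholesterol synthesis, 2 of 25 genes were lower, a share near the 10.2% over all genes, and 20 stayed within 2-fold, including Insig1, a sterol-responsive brake on the pathway, which polyU had raised from 21.9 and 23.1 to 56.9 and 57.4 CPM and which stood at 47.6 and 44.7 CPM with the combination. Dhcr7, the last enzyme of the pathway, fell from 29.3 and 30.3 to 12.1 and 12.2 CPM.

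Antioxidant and iron genes rose in part, with 6 of 22 higher and 0 lower, beside 5.29% and 10.2% over all genes. Slc7a11, the cystine importer that feeds glutathione synthesis, rose from 23.8 and 26.3 to 510 and 558 CPM (21.3-fold, adjusted p = 7.67e-13), and Lcn2, which captures siderophores, from 1.08 and 1.92 to 25.7 and 38.2 CPM. Sod2, Sqstm1, Nfe2l2 and the zinc and iron importer Slc39a14 also rose, while Hmox1 (629 and 685 against 747 and 816 CPM) and the ferritin chain Fth1 stayed within 2-fold. Among 23 genes of inflammasomes and cell death, 6 rose and 2 fell, the latter a share near the 10.2% over all genes. Nlrp3, the inflammasome sensor, rose from 133 and 122 to 664 and 622 CPM and Casp4 from 39.2 and 42.9 to 145 and 154 CPM. The survival genes Cflar (269 and 285 to 1042 and 990 CPM), Birc3 and Bcl2a1b rose, as did Bcl2a1d, whose reads may be shared with its copies. Bcl2 fell from 25.7 and 25.2 to 8.56 and 12.2 CPM and the sensor Nlrp1b from 25.3 and 22.2 to 5.73 and 5.70 CPM.

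**Figure D4:**
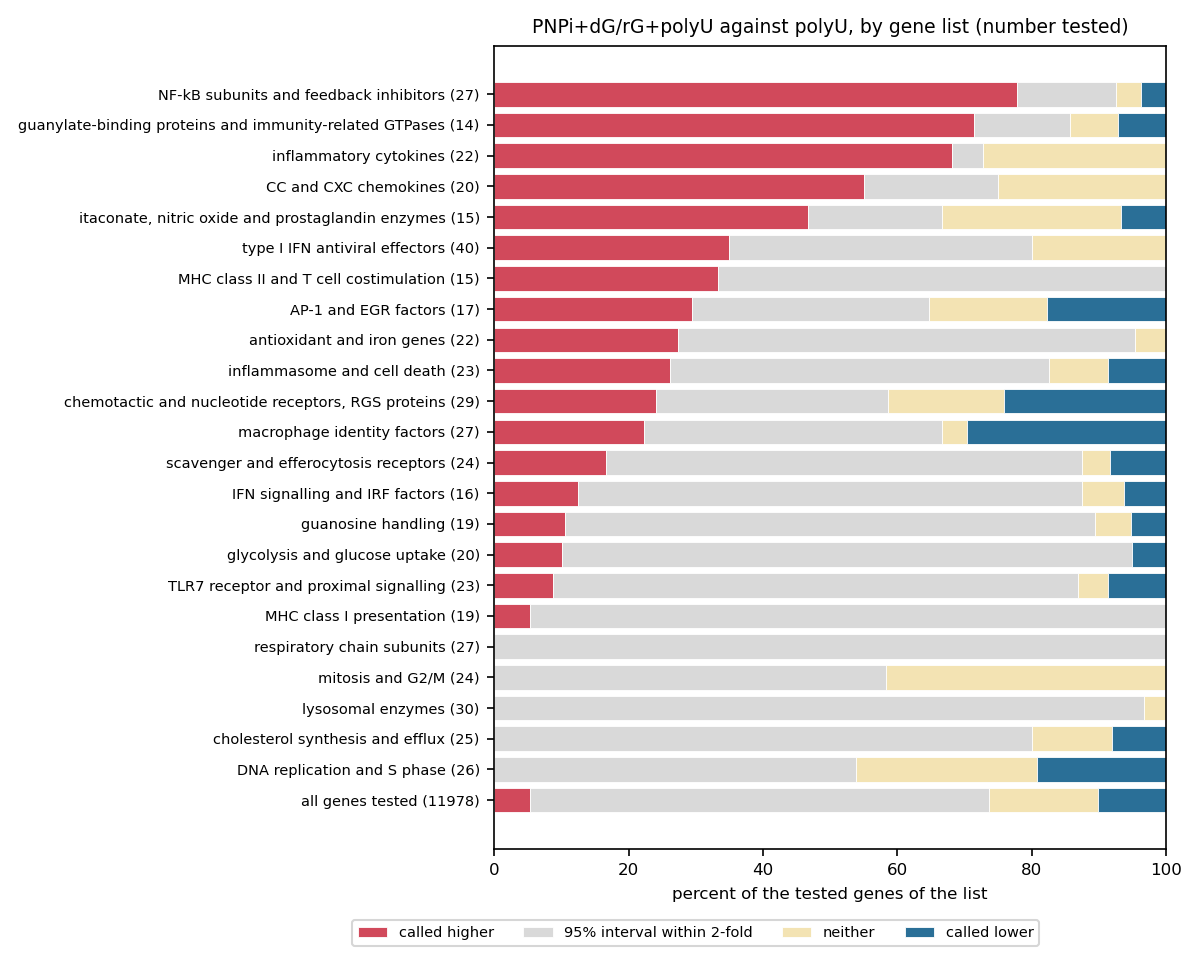
For each gene list with at least 10 tested genes (number in brackets), bars give the percent of tested genes called higher, with the whole 95% interval within 2-fold, in neither class, and called lower in PNPi+dG/rG+polyU against polyU. The NF-κB, guanylate-binding protein, cytokine and chemokine lists have the largest higher share, and the bottom bar gives all 11978 tested genes for comparison.

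Several of the most changed genes lay outside the lists. Among raised genes, Edn1, which encodes a vasoconstrictor peptide, went from 1.42 and 1.22 to 140 and 149 CPM (110-fold, adjusted p = 4.19e-13) and Adamts4, a protease of cartilage proteoglycan, from 0.852 and 1.34 to 99.4 and 89.8 CPM. Shisa3 and the ephrin receptor Epha4 had too few reads with polyU for a fold change: Shisa3 had 4 and 3 reads against 679 and 675, and Epha4 had 1 and 4 against 152 and 175. Among lowered genes, Zfp36l2, an RNA-binding relative of Zfp36 that fell where Zfp36 rose, went from 285 and 266 to 28.5 and 21.1 CPM (11.2-fold, adjusted p = 6.07e-08). Plau, the urokinase protease, stood at 1885 and 1999 CPM with vehicle, 575 and 561 after polyU and 66.6 and 56.0 after the combination, so that each step lowered it. The haematopoietic factor Lyl1 (40.3 and 46.3 to 4.53 and 4.92 CPM), the glycosyltransferase Gcnt1 (129 and 112 to 14.2 and 13.9 CPM) and the Ras activator Rasgrp3 (30.7 and 28 to 3.33 and 3.73 CPM) fell, as did Zfp395, Cdca7, Ccsap and Fam83f by 8.38-fold to 11-fold.

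A small group went against polyU. Of the 6 genes that polyU raised and the combination reduced, Gpr162, an orphan receptor, and Adam33, a metalloprotease, reached 10 CPM or more in both replicates of at least 1 group, and Galnt2, Ggnbp1, Impdh2-ps and Col6a1 were below that level. Col6a1 was at 0 reads in both combination libraries. Gpr162 went from 25.8 and 27.7 CPM with vehicle to 57.8 and 75.1 with polyU and back to 21.2 and 17.9 with the combination, a fall of 3.38-fold (adjusted p = 4.70e-08). Adam33 went from 7.63 and 7.98 to 18.3 and 19.6 and then to 6.44 and 6.47 CPM. Of the 8 genes brought back up, Bcor, a corepressor of BCL6, stood at 38.1 and 38.6 CPM with vehicle, 20.3 and 16.2 after polyU and 75.3 and 64.3 after the combination. Others among them, Tmtc2, Itga1, Hs3st3b1, Tmem200b, Grem1 and Gm42658, were below 10 CPM. Both counts were small and varied with the filter on low values and with single libraries.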

How the data were processed

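Stranded mRNA libraries were sequenced as 50-base single reads (bcl2fastq 2.19.1.403), and the authors aligned them with STAR 2.27a to GRCm38, counted reads per Ensembl 97 gene, normalized them in Partek Flow and deposited CPM values with an offset of 0.0001. After the offset was subtracted, low values were whole multiples of 1 read in each library (tolerance 0.05 reads), which gave the depths and read counts quoted. Log2 CPM values of the 10 libraries in 5 groups were fitted with limma 3.58.1 (trended and robust empirical Bayes, statmod 1.5.0, R 4.3.3), for genes with at least 1 CPM in 2 or more libraries. Fold changes are on the log2(CPM + 0.0001) scale. P-values were adjusted by Benjamini-Hochberg over the 11978 genes.

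Genes named were the most changed called genes reaching 10 CPM in both replicates of 1 or more groups, members of each class, and the extremes of each list, with further list members added for their roles. The members and lists were chosen with earlier results of these data known. Some genes of the lists are not reported here. Gene positions came from GENCODE M21 and promoters from RefSeq. In simulated data, 199 of 200 changed genes were called, as were 8 unchanged genes, and 4 genes were called with no change simulated. The changed genes were drawn above a minimum level, with changes well past 2-fold and the same spread set for every gene. These counts therefore do not measure how well genes at low levels or near 2-fold are called. Alternatives changed the filter, pseudocount, centring, variance model, libraries and replicate block.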

Additional observations from a re-analysis of the deposited data

Results flagged for a closer look

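The effect of PNPi+dG/rG on BMDMs given polyU differed from its effect on BMDMs given none by an interaction test in limma for 545 genes in the positive direction and 1062 in the negative direction (adjusted p under 0.05 and at least 2-fold). The interaction was 7.80 on the log2 scale for Il12b and 3.11 for Tnf. The 4 groups of this test have 2 libraries each, and the PNPi+dG/rG libraries were more than 2 times as deep as the others.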

How the results depend on the processing

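Across the other filters, offsets, scalings and models, genes called higher ranged from 554 to 829 and genes called lower from 755 to 1430. Centring each library on its median gave 755 lower genes and 567 negative interactions, with 1389 of the 1853 calls shared. The small classes moved most. Genes raised by polyU and reduced by the combination numbered 3 when genes needed a mean of 1 CPM, 45 with no filter, 13 with only the groups compared, 11 with a pseudocount of 0.1 and 2 with a pseudocount of 1. Genes brought back up numbered 5, 25 and 2 for a mean of 1 CPM, no filter and a pseudocount of 1, which also gave 26 genes lowered further. Leaving out 1 library in turn gave 3 to 10 reduced genes, 8 to 21 brought back up (21 without polyU replicate 1, 13 without vehicle replicate 2) and 12 to 29 lowered genes within 2-fold (29 without polyU replicate 1), with 588 to 673 genes higher and 1131 to 1300 lower. The cause of these shifts was not tested. Slc29a3 was −0.86 on centring, and Pou2f2 was called at 1.13. Nlrc5 was 0.999 and 0.915 without combination replicate 2 or polyU replicate 1. With the replicate number as a block, 633 genes were higher and 1217 lower, and no count of the main comparisons moved by over 1.5 times. Across genes, the deviations of same-numbered libraries correlated at r = 0.064 between polyU and the combination, 0.109 between vehicle and polyU, and −0.286 and −0.273 between PNPi+dG/rG and vehicle or polyU, so the numbers were not taken as pairs. Crossing those of PNPi+dG/rG, chosen after seeing these values, gave 640 and 1225. Calls for PNPi+dG/rG alone numbered 16 with no filter, 4 for a mean of 1 CPM or only the groups compared, and 1 with a pseudocount of 0.1. List counts of 0 to 2 changed by 1 or 2 genes in some of these fits. The planned count tests were not run. Depth limits genes under about 10 reads, such as Ifnb1.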

Other observations

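Some families outside the lists were looked at after their values had been seen, so their counts, beside 5.29% higher and 10.2% lower over all genes, are descriptions. Of 74 tested cytosolic ribosomal protein genes, 68 stayed within 2-fold and 0 were called by limma, and of 48 proteasome genes 46 stayed within 2-fold and 0 were called. Genes of TGF-β signalling included 3 of 7 Smad genes that fell. Smad3, a receptor-activated member, went from 17.1 and 15.2 CPM with polyU to 3.61 and 2.39 with the combination. The inhibitory members Smad6 and Smad7 went from 50.2 and 40.8 to 11 and 10.6 CPM and from 14.9 and 11.1 to 2.34 and 2.88 CPM.

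Receptors for lysophospholipids were lower for 4 of 6 tested genes. S1pr1, a sphingosine 1-phosphate receptor, went from 36.2 and 35.0 to 7.36 and 6.82 CPM and Lpar6 from 29.9 and 28.2 to 3.75 and 6.12 CPM, while Lpar1 rose from 6.31 and 7.09 to 27.5 and 23.8 CPM. The dual-specificity phosphatases (Dusp) held 3 higher and 7 lower genes of 19, among them Dusp6, which acts on ERK and went from 59.2 and 51.8 to 11.2 and 10.7 CPM. Of 11 Klf genes, 3 were higher and 4 lower, and Klf10 went from 55.7 and 51.4 to 7.64 and 6.54 CPM. Among 323 genes whose symbols start with Zfp, mostly zinc finger proteins, 47 were lower (14.6%, beside 10.2% over all genes) and 6 higher.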
